A study of Homo sapiens with 12 samples.

Results

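The genes described here build and run the cilium. They are the subunits of intraflagellar transport (IFT), the BBSome with its chaperonins and its ARL GTPases, a few transition zone genes, and genes of the motile cilium. All 42 genes of the written list were found by current or former symbol on the Affymetrix Human Genome U133 Plus 2.0 array, by 92 of the 54613 probe sets tested and among 19775 genes in all. HD-MB03 is a cell line from a human group 3 medulloblastoma in which MYC is amplified. It was grown in RPMI medium with serum and treated with 1 µM entinostat, an inhibitor of class I histone deacetylases, for 24 h or 48 h. Control cells received the solvent DMSO for the same times. Each of the 4 groups held 3 biological replicates of this single line, each on an array of its own, which makes 12 arrays.

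The cilium is a microtubule rod, the axoneme, that grows from a basal body at the cell surface. IFT trains carry its parts along the axoneme. The IFT-B complex travels to the tip with kinesin-2 motors, and the IFT-A complex belongs to the way back with the dynein-2 motor and to the entry of membrane proteins. The BBSome is a coat that rides on these trains and carries membrane proteins, ARL6 brings it to membranes, and ARL3 releases lipid-anchored proteins inside the cilium. The transition zone at the base is a gate. Motile cilia add axonemal dynein arms, radial spokes and tektins, and FOXJ1 switches on their genes, while RFX factors bind X-box sites at cilium genes of both kinds. The cilium is best known in the cerebellum as the place where Hedgehog signals are received by granule cell precursors.

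Because RFX binding is a shared feature of cilium genes, the promoters were read for X-box letters, which the choice of members did not use. RefSeq promoters on build GRCh38.p14, 250 bases before to 50 bases after the start of a gene, were at hand for 35 of the 42 members, the others being FOXJ1, BBS9, IFT22, RSPH1, TEKT2, TMEM67 and WDR35. Searched on both strands, the X-box arm GTTNCC stood in 29 of these 35 promoters (82.9%, exact 95% interval 66.4% to 93.4%), against 45.4% of all 35116 promoters of the table. In the 150 bases around the start it stood in 21 of the 35 (exact 95% interval 42.1% to 76.1%), against 26.7% of all. The full X-box, GTTNCC followed by its mirror arm GGNAAC after 0 to 3 bases, stood in 2 of the 35 (5.71%, exact 95% interval 0.7% to 19.2%). In all promoters its share was 0.74%, which lies inside that interval. Shares of all promoters count every listed promoter of a gene, and those of members 1 for each. The 60-base windows below show where these letters lie in members that were higher, lower or not past the threshold under entinostat. Capitals mark the X-box letters, or, in ARL3, the E-box CACGTG, the site of MYC and MAX.
IFT122: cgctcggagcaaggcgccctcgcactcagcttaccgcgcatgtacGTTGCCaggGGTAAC
ARL6: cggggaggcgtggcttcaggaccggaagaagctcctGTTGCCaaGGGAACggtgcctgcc
DPCD: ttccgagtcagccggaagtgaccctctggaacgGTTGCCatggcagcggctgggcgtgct
IFT20: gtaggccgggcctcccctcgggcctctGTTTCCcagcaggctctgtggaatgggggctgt
IFT27: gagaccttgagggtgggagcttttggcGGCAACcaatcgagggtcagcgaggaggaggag
BBS7: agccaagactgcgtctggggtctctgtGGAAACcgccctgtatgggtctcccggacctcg
WDR19: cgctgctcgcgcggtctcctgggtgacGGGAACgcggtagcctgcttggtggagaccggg
ARL3: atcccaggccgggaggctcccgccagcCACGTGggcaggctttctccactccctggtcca

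Each window is written 5′ to 3′ on the strand of its gene. The full X-box of IFT122 (chr3:129440167-129440226, plus strand) began 12 bases before the start, and that of ARL6 (chr3:97764698-97764757, plus strand) 24 bases before it. A single arm lay 27 bases before the start of DPCD (chr10:101588261-101588320, plus strand), 66 before that of IFT20 (chr17:28335506-28335565, minus strand) and 41 before that of IFT27 (chr22:36776128-36776187, minus strand). It lay 165 bases before the start of BBS7 (chr4:121870607-121870666, minus strand) and 49 before that of WDR19 (chr4:39182453-39182512, plus strand). The E-box of ARL3 (chr10:102714504-102714563, minus strand) lay 139 bases before the start. The E-box stood in 3 of the 35 member promoters (8.57%) and in 7.26% of all, and the FOXJ1 core GTAAACA in 2 (5.71%, IFT20 and TEKT1) and 3.42% of all. An X-box arm was present in 9 of 11 promoters of members higher at both times, in 3 of 3 of those lower at both times and in 10 of 12 of those past the threshold at neither time. A match of these letters is a description of the window and not of a bound factor.

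The values are intensities on a linear scale, with array medians between 80.7 and 81.9 and a lowest value of 36.7. A background level thus remains in every value and makes the fold changes of dim probe sets smaller. Each gene was read from its probe set with the highest mean log2 intensity over all arrays, and genes with a mean log2 under 7 are called dim here. Arrays of the same group correlated at 0.993 to 0.995 over all probe sets. In GAPDH, the log2 difference between 3′ and 5′ control probe sets, a sign of RNA quality, gave p = 0.6 after 24 h and p = 0.3 after 48 h (two-sided exact permutation test of 3 arrays against 3). In ACTB it gave p = 1.0 after 24 h and p = 0.1 after 48 h, the smallest p this exact test allows, the mean difference being -0.14 in entinostat and -0.07 in DMSO. The part of this ACTB difference in the 48 h results was not tested. Of the markers of group 3 medulloblastoma 5 of 8 were above the dim limit, MYC and OTX2 among them, but CRX, NPR3 and EYS were dim. The summed intensity of these 8 markers was 18480 to 19829 in entinostat and 21676 to 24586 in DMSO after 24 h, and 22267 to 22800 in entinostat and 24378 to 26003 in DMSO after 48 h, lower in every entinostat array at both times. IMPG2 had log2 fold changes of -2.02 and -1.52 and GABRA5 of -1.78 and -2.12, while MYC had 0.04 after 24 h (adjusted p = 0.6) and 0.17 after 48 h (adjusted p = 0.0163), and OTX2 had -0.22 after 24 h (adjusted p = 0.0312) and -0.08 after 48 h (adjusted p = 0.457). The part of these markers in the results below was not tested. Of the markers of WNT and SHH medulloblastoma 1 of 6 was above it, of fibroblasts 1 of 5, and of blood and endothelium 0 of 4.

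At an adjusted p under 0.05 (limma, Benjamini-Hochberg over all probe sets), 23 of the 42 members differed between entinostat and DMSO after 24 h, of which 16 were higher and 7 lower. Of all genes 33.2% differed, 18.2% higher and 15.0% lower. By the later time 21 members differed, of which 16 were higher and 5 lower, and of all genes 34.0% differed, 17.3% higher and 16.6% lower. Dim genes made up 16 of the 42 members and 52.7% of all genes. Among genes above the dim limit 53.7% passed after 24 h and 55.4% after 48 h, and of the 26 members above it 18 passed after 24 h and 19 after 48 h. Of the 16 dim members 5 passed after 24 h and 2 after 48 h. Of all 19775 genes 10422 were dim. After 24 h 6567 of all genes passed, of which 5019 were above the dim limit. After 48 h 6714 passed, of which 5180 were above it. These are RNA levels of whole cultures, in which fewer cells of a type and less RNA per cell cannot be told apart.

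**Figure D1:**
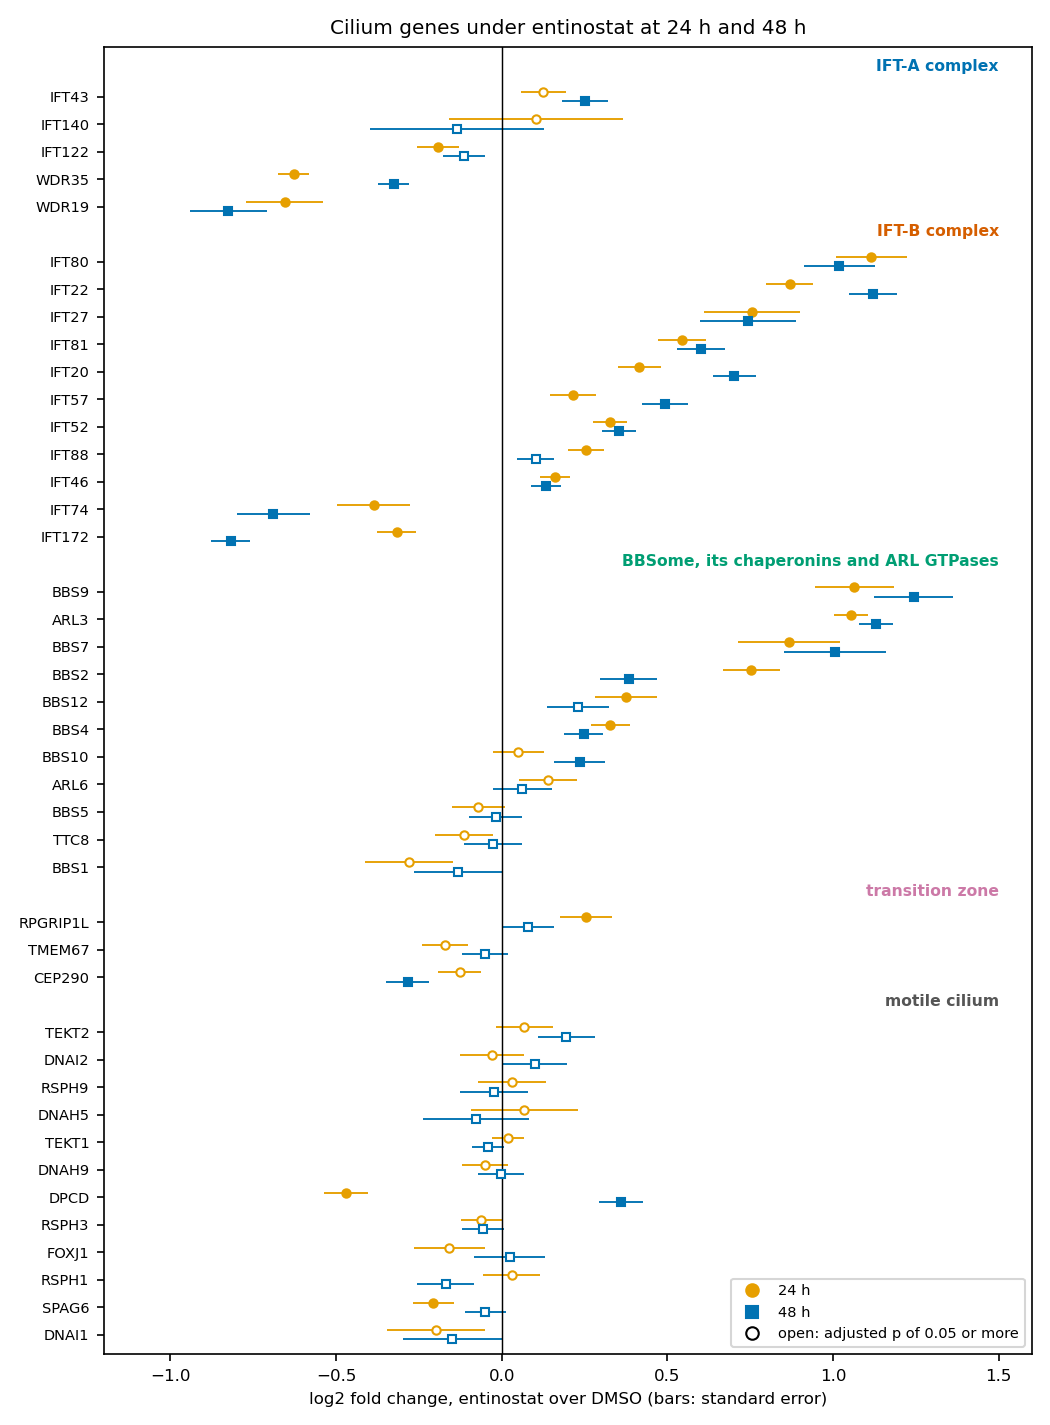
Log2 fold change of each of the 42 cilium genes in entinostat over DMSO after 24 h (circles) and 48 h (squares), by role, with bars for the standard error and open symbols for an adjusted p of 0.05 or more. All 11 IFT-B genes are filled after 24 h, 9 of them to the right of 0, while 10 of the 12 motile cilium genes are open after 24 h and 11 after 48 h.

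All 11 genes of the IFT-B complex passed after 24 h, 9 higher and 2 lower in entinostat, and 10 passed after 48 h, 8 higher and 2 lower, with a median log2 fold change of 0.33 after 24 h and 0.49 after 48 h, against -0.02 and -0.02 over all genes. IFT80, a peripheral subunit mutated in skeletal ciliopathies, read 894, 1035 and 941 in entinostat and 454, 458 and 412 in DMSO after 24 h. After 48 h it read 876, 1152 and 857 in entinostat and 444, 454 and 516 in DMSO. Every entinostat array of IFT80 lay above every DMSO array at both times, and entinostat replicate 2 was the highest at both. Its log2 fold change was 1.12 ± 0.11 after 24 h (standard error, adjusted p = 7.6e-06 from limma) and 1.02 ± 0.11 after 48 h (adjusted p = 1.44e-05). Of the 4 probe sets of IFT80 alone, 2 were higher past the threshold at each time. A further probe set, shared by IFT80 and its neighbour TRIM59 and not used for either gene, was also higher in every entinostat array.

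IFT22, a small GTPase of the complex also named RABL5, read 697, 724 and 623 in entinostat and 390.1, 365 and 363 in DMSO after 24 h. After 48 h its arrays read 682, 763 and 660.0 in entinostat and 329.8, 309 and 328 in DMSO. The groups did not overlap at either time, and the log2 fold change was 0.87 ± 0.07 after 24 h and 1.12 ± 0.07 after 48 h. IFT27, the other GTPase of the complex, was dim, with 165, 133.2 and 103 in entinostat and 73.2, 93.6 and 68.8 in DMSO after 24 h. Its entinostat arrays after 24 h were spread wide but lay above all DMSO arrays, and after 48 h they read 179, 181 and 168, against 106, 108 and 101 in DMSO. The log2 fold change of IFT27 was 0.75 ± 0.15 after 24 h and 0.74 ± 0.15 after 48 h. Of the 3 probe sets of IFT27 only 1 passed at each time. Its partner IFT25, which is no member of the list, had 0.56 and 0.50 (adjusted p = 2.04e-05 and 4.42e-05), but its probe set ends in _x_at, the mark of those that can bind several genes.

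IFT81 and IFT74 form the pair that binds tubulin cargo, and they moved in opposite directions. IFT81 read 438, 389 and 410.1 in entinostat and 305, 266 and 278 in DMSO after 24 h, and 396, 452 and 414 in entinostat and 287, 259.8 and 285 in DMSO after 48 h. Its log2 fold changes were 0.54 ± 0.07 and 0.60 ± 0.07, with no overlap of the groups. IFT74 read 129, 118 and 128 in entinostat and 170.4, 157 and 163 in DMSO after 24 h, and 109, 136 and 95.9 in entinostat and 193, 161 and 191 in DMSO after 48 h. All its entinostat arrays lay below the DMSO arrays, with log2 fold changes of -0.39 ± 0.11 (adjusted p = 0.0209) and -0.69 ± 0.11 (adjusted p = 0.000422). The dim probe sets of both genes had log2 fold changes between -0.13 and 0.01 and did not pass. The 24 h call of IFT74 was lost in 3 of 12 refits without 1 array and with the mean of all its probe sets.

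IFT172, the subunit at the turning point of the train at the ciliary tip, fell, and fell further after 48 h. After 24 h it read 160.1, 157 and 158 in entinostat and 192, 199 and 201 in DMSO. After 48 h it read 113, 122 and 130.3 in entinostat and 205, 213 and 225 in DMSO. The entinostat arrays lay below all DMSO arrays at both times, and those of 48 h lay below those of 24 h. The log2 fold change was -0.32 ± 0.06 after 24 h (adjusted p = 0.00145) and -0.82 ± 0.06 after 48 h (adjusted p = 6.23e-07). The interaction of treatment and time, which tests whether these differ, gave -0.50 (adjusted p = 0.018), a call lost without DMSO replicate 1 of 24 h or DMSO replicate 3 of 48 h, with a highest adjusted p of 0.0532, and with 30 subtracted before log2 (adjusted p = 0.0551).

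The remaining IFT-B genes were also higher where they passed. IFT20, the subunit also found at the Golgi, had log2 fold changes of 0.41 after 24 h and 0.70 after 48 h, and IFT57 had 0.22 and 0.49. IFT52, a core subunit, had 0.33 and 0.35, and IFT46, which carries outer dynein arms, had 0.16 and 0.13, with all 4 genes past the threshold at both times. The 48 h call of IFT46 failed the threshold in all 12 refits without 1 array (highest adjusted p = 0.134) and its 24 h call in 4, and the 24 h call of IFT57 failed in 4. With the mean of all probe sets IFT57 did not pass after 24 h (adjusted p = 0.262), nor IFT52 after 48 h (adjusted p = 0.153). IFT88, whose loss abolishes cilia in the mouse, passed after 24 h with 0.25 and had 0.10 after 48 h (adjusted p = 0.225).

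Of the 5 IFT-A genes 0 were higher and 3 lower after 24 h, and 1 was higher and 2 lower after 48 h. WDR35 (IFT121) read 546, 522 and 519.8 in entinostat and 813, 837 and 801 in DMSO after 24 h. After 48 h it read 633, 638 and 620.1 in entinostat and 774, 816 and 781 in DMSO. The replicates were tight and the groups far apart after 24 h, and nearer after 48 h, where the entinostat arrays were higher than after 24 h. WDR35 had a log2 fold change of -0.63 ± 0.05 after 24 h (adjusted p = 9.56e-07) and -0.33 ± 0.05 after 48 h (adjusted p = 0.000189), and the interaction of 0.30 had an adjusted p of 0.0528. The second probe set of WDR35 fell too, by 0.31 and 0.17 on the log2 scale.

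WDR19 (IFT144) read 218, 227 and 215 in entinostat and 398, 304 and 343 in DMSO after 24 h, and 167, 187 and 190.1 in entinostat and 269, 331 and 371 in DMSO after 48 h. The DMSO arrays were spread widely, but all entinostat arrays lay below them. WDR19 had a log2 fold change of -0.66 ± 0.12 after 24 h (adjusted p = 0.00095) and -0.83 ± 0.12 after 48 h (adjusted p = 0.000147). Both other probe sets of WDR19 were dim, with log2 fold changes between -0.20 and 0.12, and did not pass, so this call rests on a single probe set, which ends in _s_at, the mark of sets that can match several transcripts. Without sets ending in _x_at, _s_at or _a_at WDR19 did not pass at either time (adjusted p = 0.167 and 0.181). The sets read for IFT20, IFT22, IFT46, IFT52, IFT57, IFT80 and IFT172 also end in _s_at. So do those of the called IFT43, IFT122, BBS4, BBS9, RPGRIP1L, CEP290 and SPAG6. IFT43 had 0.13 after 24 h (adjusted p = 0.229) and 0.25 after 48 h (adjusted p = 0.0157), and all 3 of its probe sets were higher after 48 h. This call of IFT43 was lost without DMSO replicate 1 or entinostat replicate 2 of 48 h. IFT122 had -0.19 after 24 h (adjusted p = 0.0451), which failed the threshold in 8 of 12 refits without 1 array, and -0.11 after 48 h (adjusted p = 0.245). IFT140 was dim and varied between replicates, with 106, 75.6 and 90.6 in entinostat and 59.8, 84.5 and 116 in DMSO after 24 h.

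**Figure D2:**
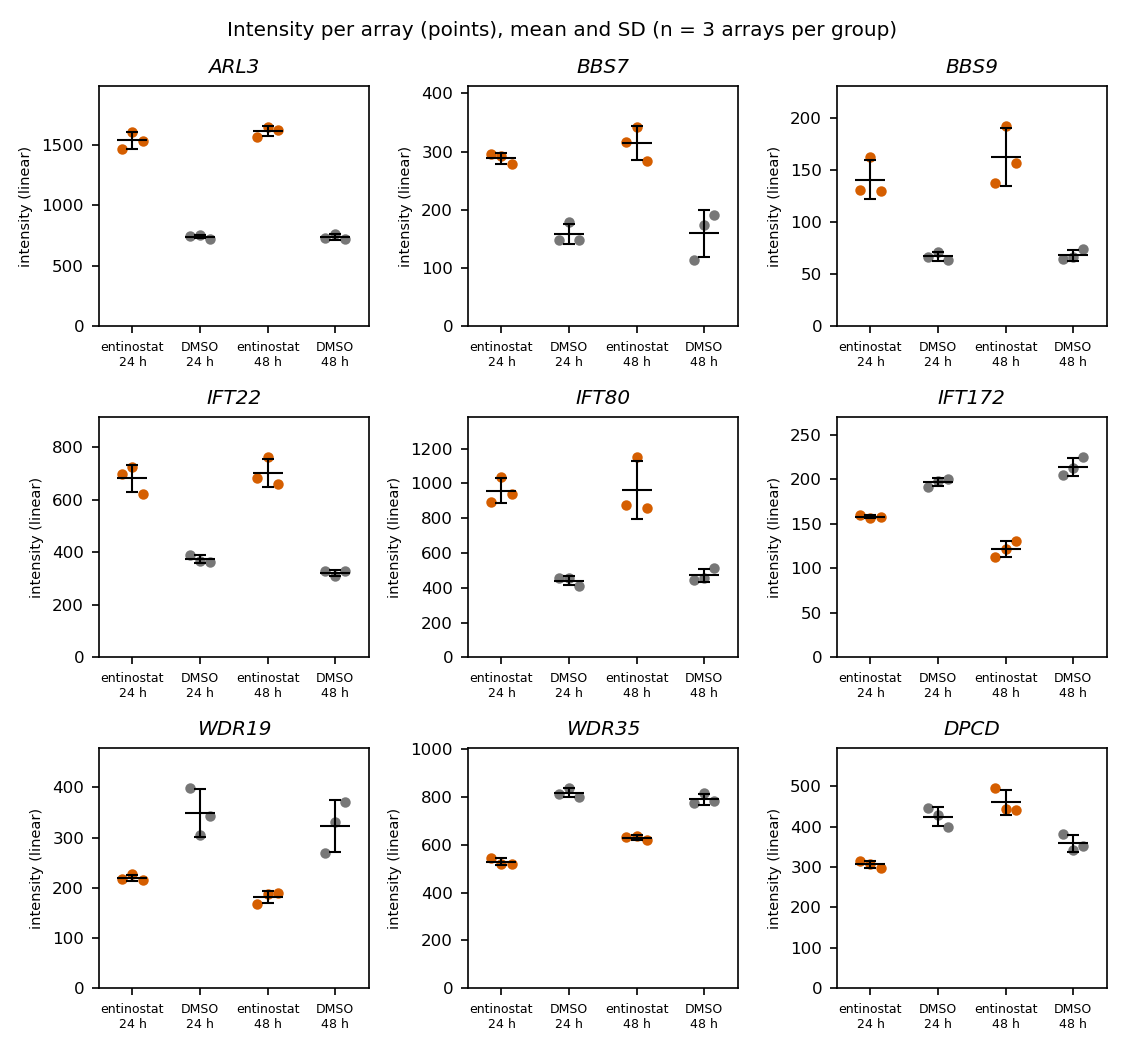
Intensity on a linear scale of 9 cilium genes on each of the 12 arrays, with entinostat in orange and DMSO in grey after 24 h and 48 h, and the mean and SD of 3 arrays per group. ARL3, BBS7, BBS9, IFT22 and IFT80 are higher in entinostat at both times, IFT172, WDR19 and WDR35 lower at both, and DPCD lower after 24 h and higher after 48 h, without overlap of the groups.

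Among the BBSome, its chaperonins and the ARL GTPases, 6 of 11 genes were higher after 24 h and 6 after 48 h, and no gene was lower past the threshold, nor was any lower at an unadjusted p under 0.05. ARL3 read 1468, 1606 and 1530.3 in entinostat and 743, 751 and 724 in DMSO after 24 h. After 48 h it read 1564, 1646 and 1624 in entinostat and 728, 762 and 721 in DMSO. The lowest entinostat array was far above the highest DMSO array at both times. The log2 fold change of ARL3 was 1.05 ± 0.05 after 24 h (adjusted p = 3.25e-08) and 1.13 ± 0.05 after 48 h (adjusted p = 1.63e-08), a fold of 2.07 and 2.19. Its other 2 probe sets were dim and had log2 fold changes between -0.05 and 0.09.

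BBS2, BBS7 and BBS9 make up the core on which the BBSome is assembled, and all 3 were higher at both times. BBS9 was dim and read 130.3, 162 and 129 in entinostat and 66.1, 71.3 and 63.5 in DMSO after 24 h. After 48 h it read 137, 192 and 157 in entinostat and 64.0, 66.0 and 73.7 in DMSO. Its entinostat arrays were all above the DMSO arrays, and the DMSO arrays lay near the background. The log2 fold change was 1.06 ± 0.12 and 1.24 ± 0.12, and 4 of its 5 probe sets were higher at both times. BBS7 read 295, 292 and 278 in entinostat and 149, 179 and 148 in DMSO after 24 h, and 316, 343 and 284 in entinostat and 115, 173 and 192 in DMSO after 48 h. The groups did not overlap, and its log2 fold changes were 0.87 ± 0.15 and 1.01 ± 0.15, with 1.02 and 0.77 in its second probe set. BBS2 read 623, 523 and 556 in entinostat and 342, 327 and 338 in DMSO after 24 h, and 521, 524 and 502 in entinostat and 393, 350.1 and 449 in DMSO after 48 h. Its groups lay closer after 48 h, and its log2 fold change was 0.75 ± 0.09 after 24 h and 0.38 ± 0.09 after 48 h, an interaction of -0.37 with an adjusted p of 0.193.

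Of the remaining BBSome subunits, BBS4, which binds pericentriolar material, had 0.33 after 24 h and 0.25 after 48 h and passed at both times. BBS1, BBS5 and TTC8 (BBS8) passed at neither time, with log2 fold changes of -0.28, -0.07 and -0.11 after 24 h and -0.13, -0.02 and -0.03 after 48 h. The chaperonin-like BBS12 was dim, passed after 24 h with 0.37 and had 0.23 after 48 h (adjusted p = 0.0977). BBS10 had 0.05 after 24 h (adjusted p = 0.713) and passed after 48 h with 0.24. This call of BBS10 failed the threshold in 4 of 12 refits without 1 array and with the replicate number as a block. ARL6, the GTPase that recruits the BBSome, had 0.14 and 0.06 (adjusted p = 0.307 and 0.694), and its promoter was one of the 2 that held a full X-box.

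Of the 3 transition zone genes, RPGRIP1L read 132.6, 124 and 123 in entinostat and 103, 109 and 106 in DMSO after 24 h, a log2 fold change of 0.25 (adjusted p = 0.0311), and 0.08 after 48 h (adjusted p = 0.549). The 24 h groups did not overlap, and the call was lost in 4 of 12 refits without 1 array. RPGRIP1L was dim, and 1 of its 2 probe sets passed after 24 h. CEP290, which bridges microtubules and membrane at the gate, read 302, 345 and 310.2 in entinostat and 372, 383 and 409.9 in DMSO after 48 h. Its entinostat arrays were all lower, with -0.28 ± 0.06 (adjusted p = 0.00513), and -0.13 after 24 h (adjusted p = 0.193). Its other 2 probe sets had 0.16 and -0.10 after 48 h and did not pass. TMEM67 was dim and had -0.17 after 24 h and -0.05 after 48 h (adjusted p = 0.102 and 0.684).

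**Figure D3:**
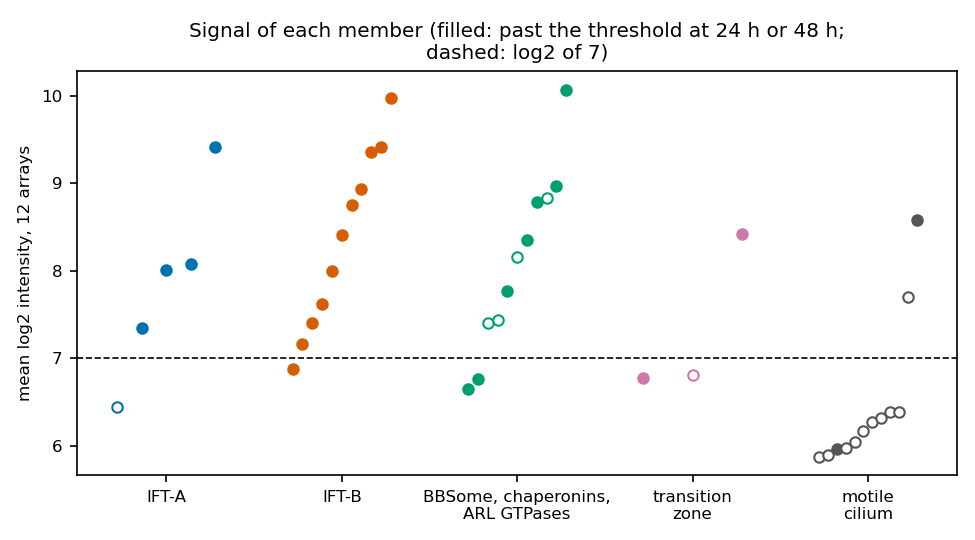
Mean log2 intensity of each cilium gene over all 12 arrays by role, filled where the gene passed the threshold after 24 h or 48 h, with a dashed line at a log2 of 7. Of the 12 motile cilium genes 10 lie below the line, and of the 11 IFT-B genes 1 does.

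Genes of the motile cilium lay near the background in both treatments. Of 12 genes 10 were dim, with mean log2 values between 5.87 and 6.38, and 2 were lower after 24 h and 1 was higher after 48 h. These are 16.7% and 8.33%, where 15.0% of all genes were lower after 24 h and 17.3% higher after 48 h. FOXJ1, the master regulator of motile cilia, read 74.8, 74.4 and 84.9 in entinostat and 91.0, 89.6 and 80.6 in DMSO after 24 h, and 72.8, 67.3 and 79.9 in entinostat and 71.1, 61.8 and 84.8 in DMSO after 48 h. The groups overlapped at both times, with log2 fold changes of -0.16 ± 0.11 (adjusted p = 0.348) and 0.02 ± 0.11 (adjusted p = 0.914). A marker list of multiciliated cells, 4 of whose 9 measured genes are members (FOXJ1, RSPH1, DNAI1 and TEKT1), had 1 gene above the dim limit (CIMAP3). Its summed intensity was 695 to 764 in entinostat and 702 to 751 in DMSO after 24 h, and 712 to 724 in entinostat and 659 to 711 in DMSO after 48 h, where every entinostat array was higher by a little. The dim CCNO was the 1 gene of this list called, with 0.42 after 24 h (adjusted p = 0.000294) and 0.47 after 48 h (adjusted p = 0.000101). The part of these markers in the results for motile cilium genes was not tested. SPAG6, of the central pair of microtubules, read 56.6, 56.8 and 55.9 in entinostat and 62.9, 67.7 and 64.7 in DMSO after 24 h. These are small steps at a dim level, with a log2 fold change of -0.21 ± 0.06 (adjusted p = 0.0252), which failed the threshold in 5 of 12 refits without 1 array, and -0.05 after 48 h (adjusted p = 0.651). The dynein genes DNAI1, DNAI2, DNAH5 and DNAH9, the radial spoke genes RSPH1, RSPH3 and RSPH9 and the tektins TEKT1 and TEKT2 passed at neither time, and their log2 fold changes lay between -0.20 and 0.19. Of the other 3 probe sets of RSPH3, all dim, 2 were higher after 48 h, with 0.19 (adjusted p = 0.0137) and 0.30 (adjusted p = 0.00741).

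DPCD, named for its deletion in a mouse with primary ciliary dyskinesia, was one of the 2 motile cilium genes above the dim limit and the single member called in opposite directions after 24 h and 48 h, as were 0.258% of all genes. After 24 h it read 314, 308 and 297 in entinostat and 446, 428 and 400.0 in DMSO, and after 48 h 495, 444 and 440.0 in entinostat and 382, 341 and 352 in DMSO. All entinostat arrays were below DMSO after 24 h and all were above it after 48 h. DPCD had a log2 fold change of -0.47 ± 0.07 after 24 h (adjusted p = 0.000172) and 0.36 ± 0.07 after 48 h (adjusted p = 0.00123), and the second probe set gave -0.46 and 0.41. The interaction was 0.83 (adjusted p = 0.003). DPCD was listed with its change of sign already known, so these values describe it and are no independent evidence. Between 24 h and 48 h DPCD rose by 0.58 on the log2 scale in entinostat (adjusted p = 0.000404), and had -0.25 in DMSO (adjusted p = 0.149).

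**Figure D4:**
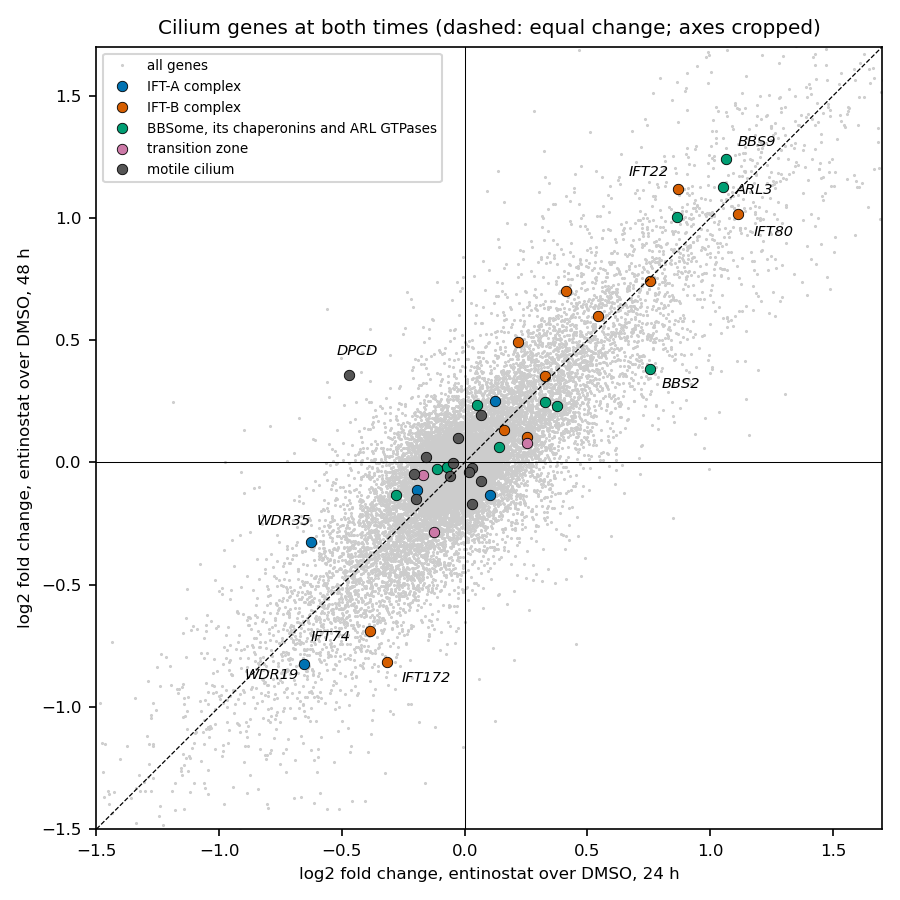
Log2 fold change in entinostat over DMSO after 24 h (x axis) and 48 h (y axis) for the cilium genes, coloured by role, over all genes in grey, with a dashed line of equal change and axes cropped at -1.5 and 1.7. Most members lie along the line, DPCD lies far from it in the upper left, below 0 after 24 h and above 0 after 48 h, and IFT172 lies below the line.

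Over both times together, 13 members were higher at both (31.0%, against 13.7% of all genes), 4 were lower at both (9.52%, against 11.1%), 8 passed at 1 time and 16 at neither. Of all 19775 genes 6567 passed after 24 h and 6714 after 48 h. Among these, 2712 were higher at both times, 2204 lower at both and 51 opposite, and the rest passed at 1 time. The 13 were 8 IFT-B genes, BBS2, BBS4, BBS7 and BBS9, and ARL3, and the 4 were IFT74, IFT172, WDR19 and WDR35. A log2 fold change of 1 or more was reached by 3 members after 24 h, where 2.82% of all genes reached it, and by 5 after 48 h, where 2.83% did. No member reached -1 at either time, at any p. The share of all genes that reached -1 was not counted, so this absence is not read as a trait of the members. An additive model over both times called 23 members, 17 higher (21.0% of all genes) and 6 lower (19.7%), where 40.7% of all genes were called. The interaction was called for 2 members, DPCD with a positive sign (0.794% of all genes) and IFT172 with a negative one (1.13%), where 1.92% of all genes were called.

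The effect of culture time was read within each treatment. Between 48 h and 24 h of DMSO, limma called 0 of 42 members, where 0.46% of all genes were called (0.217% higher and 0.243% lower), and 10 had an unadjusted p under 0.05, 4 higher and 6 lower, where 13.1% of all genes had. Between 48 h and 24 h of entinostat it called 5, where 10.3% of all genes were called, 3.96% higher and 6.34% lower. DPCD, IFT20 and WDR35 were higher after 48 h, with 0.58, 0.25 and 0.25 on the log2 scale, and IFT172 and BBS4 were lower, with -0.38 and -0.25. The calls of IFT20 and BBS4 failed the threshold in 7 and 5 of 12 refits without 1 array.

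Other genes of the cilium were read from 11 lists, of which 164 of 177 genes were measured. After 24 h, 70 of the 164 passed, 41 higher and 29 lower, and after 48 h 69, 34 higher and 35 lower. These are 42.7% and 42.1%, against 33.2% and 34.0% of all genes and 53.7% and 55.4% of those above the dim limit. The interaction was called for 6 of the 164, against 1.92% of all genes. Among other IFT subunits, a list that also holds the IFT-A adaptor TULP3, 3 of 7 genes were higher and 2 lower after 24 h. CLUAP1 (IFT38) fell by 0.64 after 24 h and 0.85 after 48 h on the log2 scale and TRAF3IP1 (IFT54) by 0.46 and 0.56. The probe set of CLUAP1 ends in _s_at, and without sets ending in _x_at, _s_at or _a_at the gene did not pass at either time (adjusted p = 0.596 and 0.27). Among the motors that pull the trains, 4 of 10 were higher and 2 lower after 24 h, and 3 higher and 1 lower after 48 h. KIF3B, a subunit of kinesin-2, read 789.9, 806 and 694 in entinostat and 381, 473 and 374 in DMSO after 24 h, without overlap, a log2 fold change of 0.90, and 1.10 after 48 h. DYNC2H1, the heavy chain of dynein-2, was dim and had -0.42 after 24 h and -0.22 after 48 h (adjusted p = 0.0797).

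Among the other genes of the BBSome and of ciliary GTPases, 6 of 13 were higher and 3 lower at both 24 h and 48 h. RAB3IP (Rabin8), the exchange factor that activates RAB8 when a cilium is started, read 605, 579 and 579 in entinostat and 215, 208 and 194 in DMSO after 24 h. The groups were far apart, with log2 fold changes of 1.52 after 24 h and 1.32 after 48 h. RP2, which switches ARL3 off, had 0.71 and 0.63, of which the 48 h call failed in 3 of 12 refits without 1 array, and INPP5E, a lipid phosphatase that ARL3 delivers to the cilium, had -0.79 and -0.57. Of other transition zone genes 4 of 16 were higher and 3 lower after 24 h, and 6 higher and 6 lower after 48 h. The dim RPGR had 0.85 and 0.42, and TMEM231 had -0.68 and -0.86.

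Of the basal body and initiation genes 4 of 16 were higher and 4 lower after 24 h, and 3 higher and 6 lower after 48 h. CEP164, of the distal appendages, had 0.55 after 24 h and 0.80 after 48 h, and CCP110, a cap that blocks the start of a cilium, had 0.68 and 0.34. Among the lower genes, the dim INTU had -0.57 after 24 h and -0.26 after 48 h (adjusted p = 0.0283). SCLT1 had -0.13 after 24 h (adjusted p = 0.231) and -0.62 after 48 h. Of 10 genes of cilium disassembly 2 were higher and 2 lower after 24 h, and 2 higher and 5 lower after 48 h. AURKA, the kinase that starts disassembly and also serves mitosis, read 982, 912 and 1129 in entinostat and 1613, 1390.0 and 1696 in DMSO after 24 h, without overlap. It fell by 0.64 after 24 h and 0.53 after 48 h on the log2 scale. NEDD9, the activator of AURKA at the cilium, was dim and had 0.95 and 0.76, and NEK2 had 0.63 and 0.25. The 48 h call of NEK2 failed the threshold in 7 of 12 refits without 1 array (highest adjusted p = 0.175), with centred arrays and with quantile normalization.

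Of 14 ciliary transcription factors 1 was higher and 4 lower at either time. RFX3 was the one higher after 24 h, with 384, 356 and 396 in entinostat and 239, 256 and 270.4 in DMSO, a log2 fold change of 0.57, and 0.50 after 48 h. RFX7 had -0.58 and -0.61, and E2F5, a partner of the multiciliated cell programme, had -0.67 after 24 h and -0.16 after 48 h (adjusted p = 0.297). Of 11 Hedgehog genes that act at the cilium 2 were higher and 2 lower after 24 h, and 1 higher and 4 lower after 48 h. SMO, the transducer, had -0.48 and -0.58, and EVC had -0.29 after 24 h (adjusted p = 0.138) and -1.03 after 48 h. HHIP, an inhibitor of Hedgehog ligands, had 0.77 and 0.56. SMO, EVC and HHIP were all dim. Without sets ending in _x_at, _s_at or _a_at HHIP did not pass after 24 h (adjusted p = 0.0692).

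Of 22 further axonemal dynein and radial spoke genes 5 were higher and 1 lower after 24 h, and 3 higher and 0 lower after 48 h. Of 32 dynein assembly and axoneme genes 7 were higher and 4 lower after 24 h, and 5 higher and 2 lower after 48 h. SPAG1, a cytoplasmic assembly factor of dynein arms, read 250.2, 229.9 and 228 in entinostat and 124, 107 and 96.3 in DMSO after 24 h. Its groups did not overlap, and it had log2 fold changes of 1.12 and 1.26. STK36, a kinase needed for the central pair, had -0.90 and -0.76. Of 13 genes in a second list of multiciliated cell markers 3 were higher and 2 lower after 24 h, and as many after 48 h. This list shares CCNO, DEUP1, CDC20B, CIMAP3 and SNTN with the marker list above, and CCNO is among its higher genes. The dim TPPP3 had 0.86 and 0.53, and CETN2 had -0.48 and -0.17 (adjusted p = 0.118 after 48 h).

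**Figure D5:**
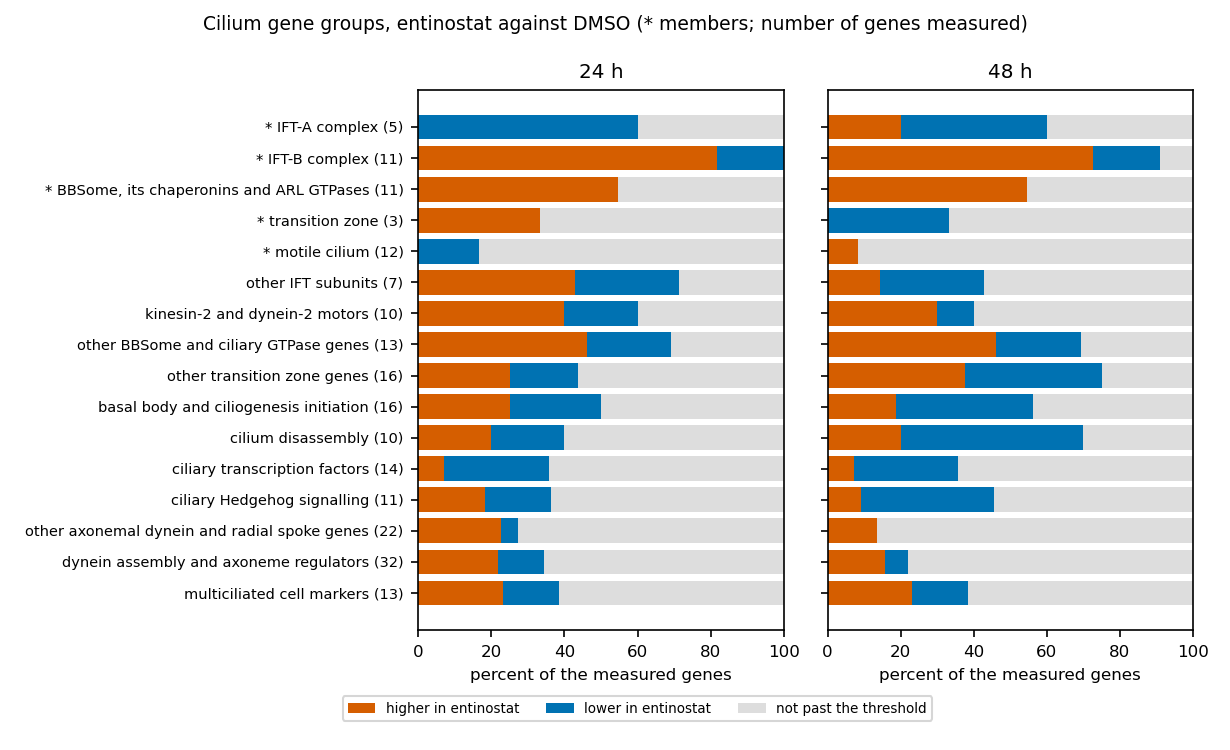
Percent of the measured genes of each cilium group that were higher (orange) or lower (blue) in entinostat or not past the threshold (grey) after 24 h and 48 h, with members marked by an asterisk and the number of genes in brackets. IFT-B has the longest orange bars, with 9 of 11 genes after 24 h and 8 of 11 after 48 h.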

How the data were processed

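RNA was measured in 12 samples on arrays of 1 colour. The deposited intensity values were made by the authors at a core facility, with GCRMA named in the submitters' processing notes and a log2 step in the methods. As deposited they are on a linear scale with a background level left, so they may be another export, and log2 was taken here. Its version is not given in the sources used here. The table held 54675 probe sets, of which 62 controls were dropped, and 2 empty cells. Probe sets with several gene symbols (1801) or none (11721) named no gene. In R 4.3.3, limma 3.58.1 (lmFit, eBayes) modelled the 12 arrays with a mean for each of the 4 groups, and with treatment and time as terms for the additive model. The number of arrays limits the precision.

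The members and lists were chosen with earlier results of these data known, DPCD with its change of sign among them. Values per array are given for up to 4 genes per role with the largest changes past the threshold at each time, for DPCD and FOXJ1 and for members with a called interaction, and from other lists for the 2 largest rises and falls over both times, of which the text gives a part. IFT74, IFT140 and 4 genes with a called interaction were added for their values. The settings varied were leaving out dim probe sets, centred or quantile-normalized arrays, subtraction of 30, normexp with an offset of 50, another prior, separate fits, the replicate number as a block, the choice of probe set for a gene, an adjusted p under 0.01 and leaving out each array in turn. Same-numbered arrays of entinostat and DMSO correlated in their deviations from the group means at 0.0532, 0.2018 and 0.1719 at 24 h and 0.1045, 0.0631 and -0.0613 at 48 h. Differently numbered arrays gave -0.2097 to 0.0606 at 24 h and -0.1303 to 0.0706 at 48 h. These values do not settle whether the numbers pair arrays. The main fit used no pairing, and counts with the number as a block are given below. The fit was also run on simulated data with far fewer changed probe sets than were called here, which checks the code and not these calls. Where a member has several RefSeq promoters (5 members), the first listed was read.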

Additional observations from a re-analysis of the deposited data

Results flagged for a closer look

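The effect of entinostat differed between 24 h and 48 h, by limma's interaction of treatment and time, in 2 members and in 6 of 164 other cilium genes. DPCD had an interaction of 0.83 on the log2 scale (adjusted p = 0.003), which was kept in all 12 refits without 1 array. IFT172 had -0.50 (adjusted p = 0.018), lost in 2 of 12 refits. SCLT1, of the distal appendages, had -0.49 (adjusted p = 0.0479), lost in 11 of 12 refits, with -0.13 after 24 h and -0.62 after 48 h on the log2 scale. NDE1, a brake on cilium growth, had -0.70 (adjusted p = 0.0385), lost in 10 of 12 refits, with -0.04 after 24 h and -0.74 after 48 h. The 4 remaining genes were named after their values were seen. KIF9, a kinesin of the central pair, had 0.93 (adjusted p = 0.00408), kept in all 12 refits, with -0.38 after 24 h (adjusted p = 0.00339) and 0.55 after 48 h (adjusted p = 0.000232), but its probe set ends in _x_at, and without sets ending in _x_at, _s_at or _a_at the interaction had an adjusted p of 0.823. TULP3, an adaptor between IFT-A and membrane proteins, had -0.52 (adjusted p = 0.0387), lost in 10 of 12 refits, with 0.34 after 24 h and -0.19 after 48 h (adjusted p = 0.0931). CFAP20, an axonemal protein, had -0.36 (adjusted p = 0.027), lost in 7 of 12 refits, with 0.31 after 24 h and -0.04 after 48 h (adjusted p = 0.567). TUBB4B, a tubulin whose probe set also ends in _x_at, had -0.45 (adjusted p = 0.032), lost in 10 of 12 refits, with 0.10 after 24 h (adjusted p = 0.271) and -0.35 after 48 h. Across all genes 1.92% had a called interaction.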

How the results depend on the processing

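Counts of members called kept within 1.5 times under the settings tried, except as follows. Without probe sets ending in _x_at, _s_at or _a_at, which left 32 members measured, 13 were called after 24 h, 13 after 48 h and 13 over both times, 1 in the interaction and 2 between the times in entinostat. Of all 16788 genes left in this setting, 2805 were higher and 2273 lower after 24 h, and 2665 and 2484 after 48 h. Over both times 3228 were higher and 3046 lower. With 30 subtracted before log2, the interaction was called for 1 member and the change between the times in entinostat for 3, and 1 and 3 at an adjusted p under 0.01. For the other cilium lists the interaction was called for 1 gene under each of these last 2 settings, and for 11 of 90 with a filter at a mean log2 of 7, against 6 of 164. Calls among all genes rose under that filter too. It called 235 of 9353 genes with a positive sign and 403 with a negative one, against 157 and 223 of 19775 in the main fit. Signs turned in RPGRIP1L over both times (-0.016), CEP290 at 48 h (0.16), IFT25 at 48 h (-0.090) and KIF9 between the times in entinostat (-0.028) without those probe sets, in GPR161 at 24 h (-0.031) and over both times (-0.030) with the mean of all probe sets, and in DNAH6 over both times (0.14 with the probe set of the strongest effect, 0.033 with the mean). The cause was not tested. Leaving out 1 array gave 18 to 23 members after 24 h, 18 to 20 after 48 h, 22 to 25 over both times, 1 to 2 in the interaction, 0 to 0 between the times in DMSO and 3 to 7 in entinostat. For the other lists it gave 59 to 69 after 24 h, 59 to 72 after 48 h, 75 to 84 over both times and 1 to 5 in the interaction. With the replicate number as a block, which the arrays share only by number, 22 members were called after 24 h, 20 after 48 h and 22 over both times, 2 in the interaction, 0 between the times in DMSO and 6 in entinostat, and of the other lists 73 genes after 24 h, 71 after 48 h, 81 over both times and 9 in the interaction. Of all 19775 genes this block called 3677 higher and 2993 lower after 24 h, and 3445 and 3338 after 48 h. Over both times it called 4148 higher and 3843 lower. Dim probe sets limit the motile cilium genes most, since 10 of 12 lay near the background.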
